A study of Mus musculus with 4 samples.

Results

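The 6 long noncoding RNAs Neat1, Malat1, Meg3, Rian, Mirg and Kcnq1ot1 were followed in articular cartilage, 6 of the 24532 genes of the expression table. They were taken by gene symbol, and they were chosen because the FPKM of Neat1 was nearly absent from 1 library, so that the members were selected on values of these same libraries and the FPKM of Neat1 in that library is a description. Gene expression had been measured by RNA sequencing in 4 groups of wild-type C57BL/6 mice, which were sham-operated and injured cartilage of young mice and of adult mice. Each group was 1 library from 1 pool of mice, so that no difference has a replicate check, no test was possible and no error can be given. Pools held cartilage of 5 uninjured or 10 injured mice by the methods of the study. Young mice were 3 weeks old. Adult mice were 10 weeks old by the methods, 12 weeks by the sample titles and 14 weeks by another label. Injured cartilage was collected 3 days after full-thickness cartilage injury (FTCI) by the methods, whereas the labels name DMM surgery for the same samples. The label of the adult sham sample covers days 3 to 14, unlike that of the other libraries, so age, collection time and library cannot be told apart for it.

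Neat1 and Malat1 are neighbouring genes whose RNAs stay in the nucleus. Neat1 is the scaffold of paraspeckles, nuclear bodies that form only when its long isoform is made, and it is known to be induced by stress, whereas Malat1 collects in nuclear speckles beside splicing factors. Meg3, Rian and Mirg are transcribed one after the other from the maternal copy of the Dlk1-Dio3 imprinted domain and host many snoRNAs and microRNAs. Kcnq1ot1 is an unspliced RNA made from the paternal copy of another imprinted domain, where it keeps neighbouring genes such as Cdkn1c silent in cis.

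The libraries were prepared from poly-A selected RNA, and the RNAs differ in how their 3′ ends are made, so the ends are shown. Neat1 has a short isoform that ends after a poly-A signal and a long isoform that begins at the same place and runs on to an end cut by RNase P. Malat1 is cut in the same way, just before a small tRNA-like RNA called mascRNA. The last 60 bases of the short Neat1 isoform in GENCODE M21 (GRCm38, chr19:5842307-5842366, minus strand), with the AATAAA poly-A signal in capitals, were
Neat1, short isoform: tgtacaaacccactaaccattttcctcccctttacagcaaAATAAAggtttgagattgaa
The 60 bases before mascRNA in Malat1 (chr19:5795982-5796041, minus strand) and the last 60 bases of the long Neat1 isoform (chr19:5824708-5824767, minus strand) are shown with the longest stretch they share, of 16 bases, and their shared last 11 bases in capitals.
Malat1, before mascRNA: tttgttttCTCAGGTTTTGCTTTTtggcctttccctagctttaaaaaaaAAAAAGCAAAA
Neat1, long isoform: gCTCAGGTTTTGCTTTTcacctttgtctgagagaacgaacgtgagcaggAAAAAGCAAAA
Both of these ends held a U-rich stretch, written with T in the DNA sequence, and closed on a genomically encoded A-rich run. The annotated Malat1 transcript runs on past mascRNA, and its own last 60 bases (chr19:5795690-5795749, minus strand) did hold AATAAA. The ends of Meg3 (chr12:109571667-109571726, plus strand), Mirg (chr12:109749399-109749458, plus strand) and Kcnq1ot1 (chr7:143203458-143203517, minus strand) each held an AATAAA signal, in capitals, whereas another Meg3 transcript that ends earlier (last 60 bases chr12:109559130-109559189, plus strand) had none. The GENCODE transcript of Kcnq1ot1 ran past the end of its RefSeq gene.
Meg3: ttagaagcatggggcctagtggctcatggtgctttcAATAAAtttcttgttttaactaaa
Mirg: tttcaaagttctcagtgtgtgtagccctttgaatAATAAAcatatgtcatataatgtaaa
Kcnq1ot1: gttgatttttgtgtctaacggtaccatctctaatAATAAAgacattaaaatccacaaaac

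Values are FPKM, in which the fragments of a gene are scaled by its length and by library size. Values given in a row follow 1 order, sham and injured cartilage of young mice and then sham and injured cartilage of adult mice. Neat1 (chr19:5824708-5845480) was at 234 and 257 FPKM in young mice and at 0.828 and 518 FPKM in adult mice. Its level was thus high in 3 libraries and close to 0 in adult sham alone, the pattern it was chosen for. Ranked among all genes of a library, Neat1 was 274th in young sham, 154th in adult injured and 11809th in adult sham cartilage.

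Malat1 (chr19:5795690-5802672) was at 264 and 202 FPKM in young mice and at 78.6 and 208 FPKM in adult mice. It was also lowest in adult sham, but by a far smaller factor than Neat1, and it ranked 670th there. Kcnq1ot1 (chr7:143213111-143296547) had 1.04 and 0.6375 FPKM in young mice and 0.119 and 0.365 FPKM in adult mice, a low level throughout with the lowest value again in adult sham.

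The 3 RNAs of the Dlk1-Dio3 domain were ordered differently. Meg3 (chr12:109540996-109571729) was at 731 and 705 FPKM in young mice and at 311 and 234 FPKM in adult mice. Rian (chr12:109603945-109661716) followed with 430.0, 419.7, 142 and 94.9 FPKM, and Mirg (chr12:109734981-109749458) with 77.1, 91.8, 42.8 and 23.4 FPKM. All 3 were lower in both adult libraries than in both young ones and lowest in adult injured cartilage, where Neat1 was highest, and both orders were kept under each of the 3 other scalings of the libraries. Kcnq1ot1 was likewise below both young libraries in both adult ones, which made 4 of 6 members against 36.1% of all genes above 0 FPKM. The plot of FPKM by library sets the 6 RNAs side by side.

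**Figure D1:**
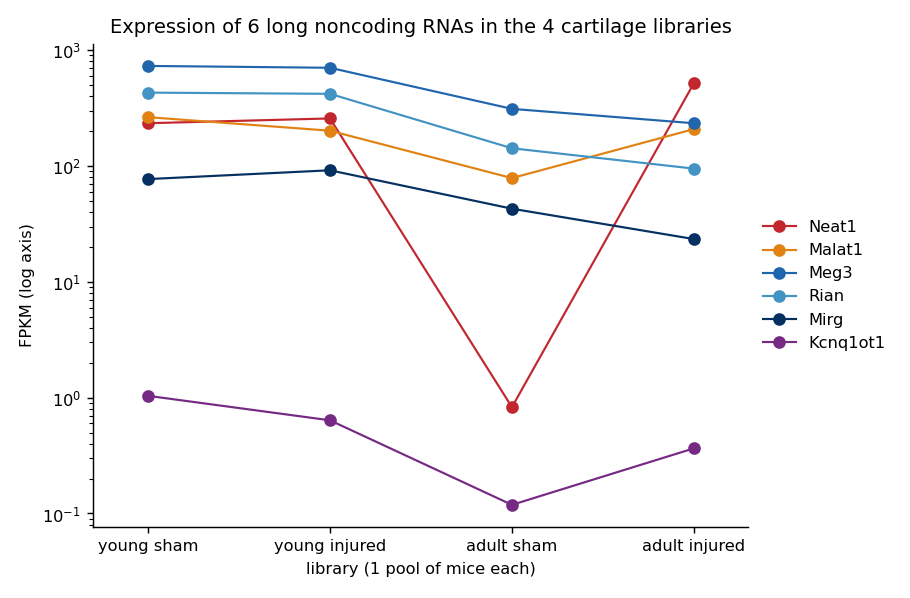
FPKM (log axis) of the 6 RNAs in the 4 libraries, each a single pool, with 1 point for each RNA and library and lines that only join the points of 1 RNA. Neat1 drops to 0.828 FPKM in adult sham, whereas Meg3, Rian and Mirg step down from the young to the adult libraries.

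For the comparisons, the log2 ratio of FPKM + 1 was taken and a gene was counted at 2-fold or more. The 4 comparisons share libraries, so the ratios of adult injured to adult sham and of adult sham to young sham both rest on the adult sham value. In bulk cartilage, fewer cells of a type and less RNA per cell cannot be told apart.

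Injury in young mice left each of the 6 RNAs within 2-fold. The log2 ratios lay between −0.39 for Malat1 and 0.25 for Mirg, with 0.14 for Neat1, −0.05 for Meg3, −0.03 for Rian and −0.31 for Kcnq1ot1. None of the 6 was counted, where 5.83% of the 18181 genes above 0 FPKM were 2-fold or more apart in either direction. The sign for Neat1 turned under quantile normalization, where its log2 ratio was −0.03.

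In adult mice, 2 of 6 members were 2-fold or more higher in injured than in sham cartilage, Neat1 and Malat1, beside 6.9% of all genes. Neat1 was chosen for its adult sham value, so nothing is read from this count. The log2 ratio of Neat1 was 8.15, or 626-fold in FPKM, and that of Malat1 was 1.39, or 2.65-fold. The imprinted Meg3, Rian and Mirg were on the other side, at log2 ratios of −0.41, −0.58 and −0.84, all within 2-fold, and Mirg passed 2-fold under median-of-ratios scaling at −1.11 and under quantile normalization at −1.07. Kcnq1ot1 had a log2 ratio of 0.29, which the pseudocount of 1 FPKM holds down, as its FPKM was 3.07-fold higher in adult injured cartilage.

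Between sham libraries, 4 of 6 members were 2-fold or more lower in adult than in young mice, beside 10.6% of all genes, and Neat1 is again among those counted through the value that chose it. The log2 ratios were −7.01 for Neat1, −1.73 for Malat1, −1.59 for Rian and −1.23 for Meg3. Mirg at −0.83 and Kcnq1ot1 at −0.86 were not counted, although the FPKM of Kcnq1ot1 was 8.73-fold lower in adult sham. Meg3 fell short of 2-fold under median-of-ratios scaling, at −0.84, and under quantile normalization, at −0.98.

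Between injured libraries, which leave the adult sham library out, 3 of 6 members were 2-fold or more lower in adult mice, against 3.09% of all genes. These were Rian at a log2 ratio of −2.13, Mirg at −1.93 and Meg3 at −1.59, the 3 RNAs of the Dlk1-Dio3 domain, and each was counted under every pseudocount and scaling tried. Neat1 was the 1 member that was 2-fold or more higher, against 1.8% of all genes, at a log2 ratio of 1.01 that lies on the threshold and was 0.996 with a pseudocount of 5 FPKM. Malat1 was at 0.05 and Kcnq1ot1 at −0.26. The plot of log2 ratios shows each RNA beside the spread of all genes.

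**Figure D2:**
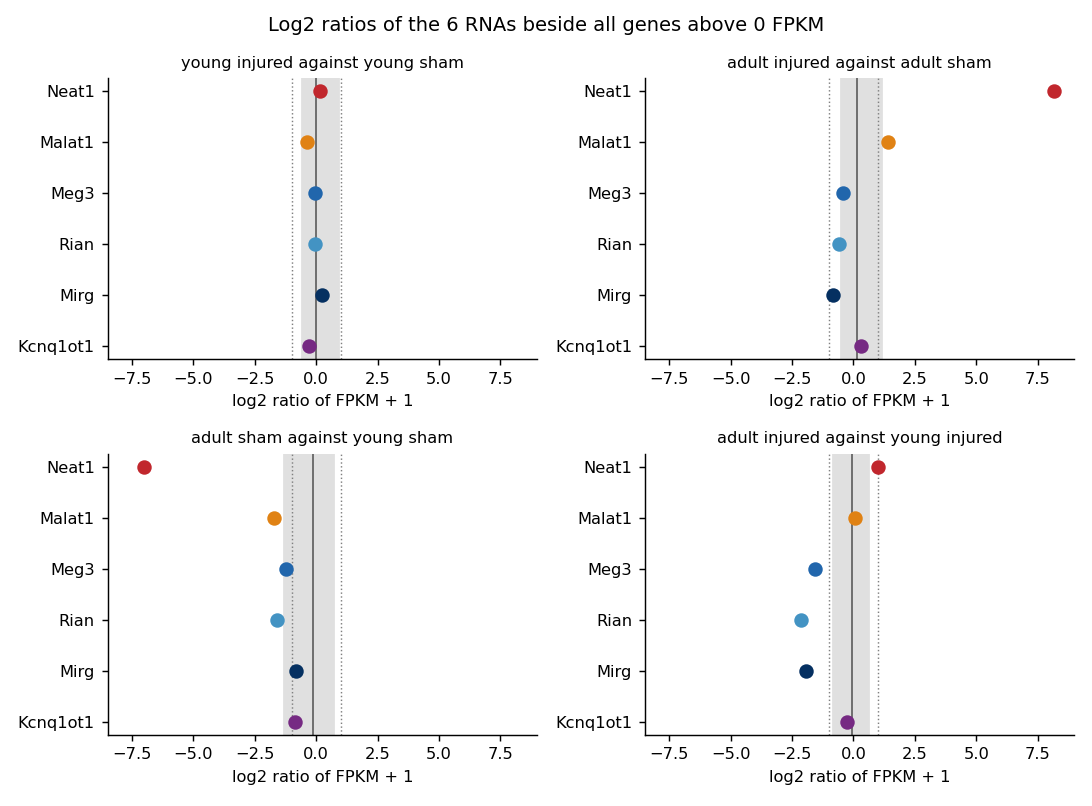
Log2 ratios of FPKM + 1 of the 6 RNAs (points) in the 4 comparisons. The grey band spans the 5th to 95th percentile of the 18181 genes above 0 FPKM, the solid line is their median and the dotted lines mark 2-fold; Meg3, Rian and Mirg lie left of the band between the injured libraries.

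The question of whether other nuclear transcripts followed Neat1 was asked with a gap, the log2 ratio of adult sham to the lowest of the other 3 libraries. A gap of 2-fold or more below was found for 2.01% of all genes, 365 in number, and for 2 of the 6 members. These were Neat1, chosen for it, at −7.01 and Malat1 at −1.35. The gap of Kcnq1ot1 was −0.29, and those of Meg3, Rian and Mirg were 0.41, 0.58 and 0.84, so that adult sham was not their lowest library. Under median-of-ratios scaling the gap of Malat1 was −0.99 and Neat1 alone remained of the members. Many genes of these libraries were lowest in adult sham, 55.0% of the 12418 genes that averaged 1 FPKM or more, and the same gap taken for the other libraries counted 87 genes in young sham, 32 in young injured and 23 in adult injured cartilage.

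A gap of 8-fold or more below was found for only 6 genes, or 0.033%, in adult sham, and Neat1 was second among them. Among the 7131 genes with at least 5 FPKM in each of the other 3 libraries, the 10 with the deepest gap were, in order, Hbb-b1, Neat1, Mest, Eif3j2, Sap18b, Mir703, Cthrc1, 5730408K05Rik, Stmn1 and Matn1, and Malat1 was 85th. Mest, an imprinted gene of embryonic and mesenchymal tissue, had 105 and 334 FPKM in young mice and 1.14 and 48.0 FPKM in adult mice. Matn1, a cartilage matrix protein, had 1661, 823, 2.65 and 16.8 FPKM and was thus low in both adult libraries. The histogram of gaps shows Neat1 apart from nearly all genes.

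**Figure D3:**
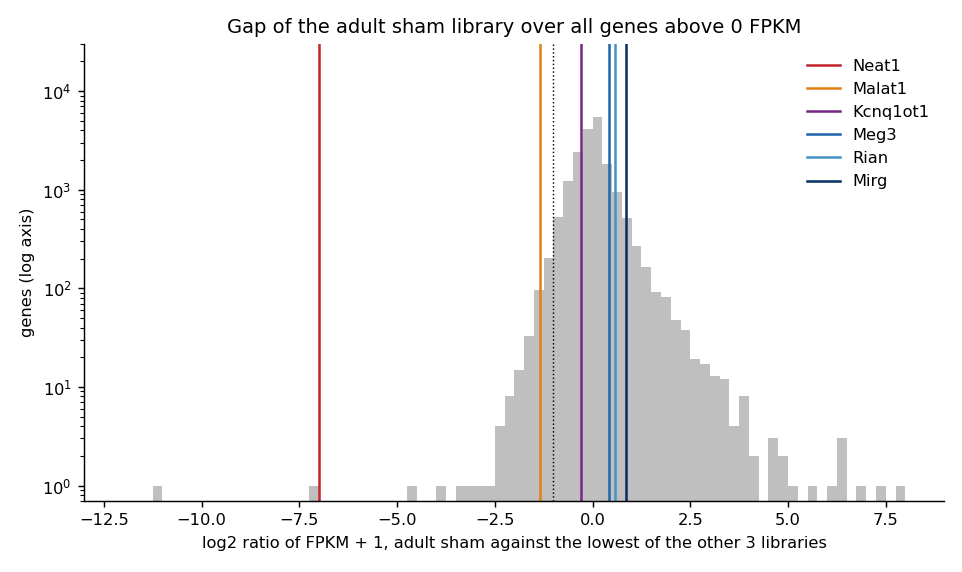
Number of genes (log axis) by log2 ratio of FPKM + 1 of adult sham to the lowest of the other 3 libraries, over 18181 genes above 0 FPKM, with the 6 RNAs as vertical lines and 2-fold as a dotted line. Neat1 at −7.01 and Malat1 at −1.35 lie left of the dotted line; Meg3, Rian and Mirg lie right of 0.

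Of these deep gaps, 3 belonged to genes with a paralogue or copy whose row moved the other way. Eif3j1, Sap18 and Hbb-bs, the other rows of these pairs, were named after their values were seen. Eif3j2, a translation initiation factor subunit, was listed at 0 FPKM in adult sham and at 14.7 to 18.3 FPKM elsewhere, whereas its copy Eif3j1 was at 8.96 FPKM in adult sham and at most 0.164 FPKM elsewhere. The gap of their sum was −0.66. For the splicing cofactor gene Sap18b and its copy Sap18, the gap of −3.27 for the first became −1.87 for the sum. Hbb-b1, an adult beta-globin, was at 0.244 FPKM in adult sham, where Hbb-bs, another beta-globin, was at 2868 FPKM, and the gap of their sum was 0.06. Whether the adult sham library was aligned and annotated in the same way as the others was not tested, and this bears on each adult sham value and gap given here, those of Neat1 and Malat1 included. Of the 31-base sequence words of Neat1, 2.14% occurred in a transcript of another gene, against 94.9% for Eif3j2 and 98.8% for Sap18b. No transcript of Hbb-b1 was matched, so its likeness to Hbb-bs was not measured. No other gene of the table overlapped the locus of Neat1. The table gives 1 value for both Neat1 isoforms, whose lengths of 20.8 and 3.00 kb differ 6.91-fold, and its FPKM differed 283-fold between young and adult sham cartilage. The part of the counting of isoforms in that difference was not tested.

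Neat1 was not at 0 in adult sham. Fragment counts were not analysed here, and the FPKM did not give them back: when low FPKM were multiplied by transcript length, 43.4% to 45.0% of them in a library lay within 0.1 of a whole step. The depth behind these values is therefore unknown, and no counting interval is given.

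Proteins and RNAs that share compartments with Neat1 and Malat1 were read next, beside the 2.01% of all genes with a gap of 2-fold or more below. In lists of about 30 genes or fewer, a count of 0 or 1 lies near that share. Of 16 paraspeckle proteins, 2 had a gap of 2-fold or more below, Tardbp at −1.21 and Nudt21 at −1.12. The median gap was −0.46, against 0.00 over all genes and −0.06 over those averaging 1 FPKM or more, as all 16 did. Neither was counted under median-of-ratios scaling or quantile normalization, which left 172 and 137 genes in all. Nono, Sfpq and Pspc1, the core proteins that bind Neat1, had gaps of −0.30, −0.46 and −0.71. Sfpq had 44.5, 38.0, 23.5 and 32.7 FPKM, lowest in adult sham by less than 2-fold. Against young sham, 6 of the 16 were 2-fold or more lower in adult sham, beside 10.6% of all genes. So were 8 of 21 speckle and SR splicing proteins and 7 of 17 snoRNA host genes, so this drop was not particular to paraspeckle proteins. The paraspeckle count was 1 of 16 under median-of-ratios scaling, beside 1009 of 18181 genes. That scaling moved the median of genes expressed in all libraries from −0.30 to 0.02.

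Of 21 speckle and SR splicing proteins, 2 had a gap of 2-fold or more below, the splicing factors Srsf10 at −1.47 and Srsf11 at −1.12, and the list median was −0.32. The count was 1 under median-of-ratios scaling and under quantile normalization. The kinases Clk1 and Clk4, whose mRNAs are largely held in the nucleus through detained introns, were at gaps of 0.43 and 0.28, which places adult sham above the lowest of the other libraries. Of 20 mRNAs with detained introns or known nuclear retention, none had a gap of 2-fold or more below. Their median gap was 0.01, or −0.28 for the 17 averaging 1 FPKM or more, where that of all such genes was −0.06, and the count stayed at 0 under the 3 other scalings.

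Among 24 other named long noncoding RNAs above 0 FPKM, 1 had a gap of 2-fold or more below, H19, an imprinted RNA abundant in growing tissue. With 1474 and 1349 FPKM in young mice and 37.3 and 116 FPKM in adult mice, it was low in both adult libraries, unlike Neat1. Tug1 at a gap of −0.72 and Firre at 0.36, both nuclear RNAs, were less than 2-fold apart. Of the 17 snoRNA host genes, Snhg3 alone passed, at −1.62. Of 113 small noncoding RNA genes of the nucleus above 0 FPKM, 7 passed, among them Rmrp at −1.17 and Rpph1 at −1.10, the RNAs of RNase MRP and of RNase P. The count was 3 under median-of-ratios scaling and 2 under quantile normalization. The median gap was 0.00, or −0.28 for the 68 averaging 1 FPKM or more. Of 1011 other annotated long noncoding genes above 0 FPKM, 6 had a gap of 2-fold or more below beside the 2.01% of all genes. The 6 included 5 of the 823 that were spliced and none of the 63 that were single-exon, and splicing was not known for the others. With the pseudocount of 1 FPKM, a gene below 1 FPKM in any of the other libraries cannot pass. Only 250 of the 1011 averaged 1 FPKM or more, 195 of the spliced and 25 of the single-exon genes among them, so these counts say little. The median gap of the 250 was 0.02, and adult sham was lowest for 121 of them, or 48.4%, against 55.0% of all such genes.

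Of 30 protein-coding genes above 0 FPKM within 250 kb of Neat1 and Malat1 on chromosome 19, none had a gap of 2-fold or more below, near the 2.01% of all genes, and the median was 0.12. The count was 0 under the 3 other scalings too. Frmd8 was higher in both adult libraries with 7.93, 10.4, 13.4 and 13.5 FPKM. The plot of the lists shows each gene and each median.

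**Figure D4:**
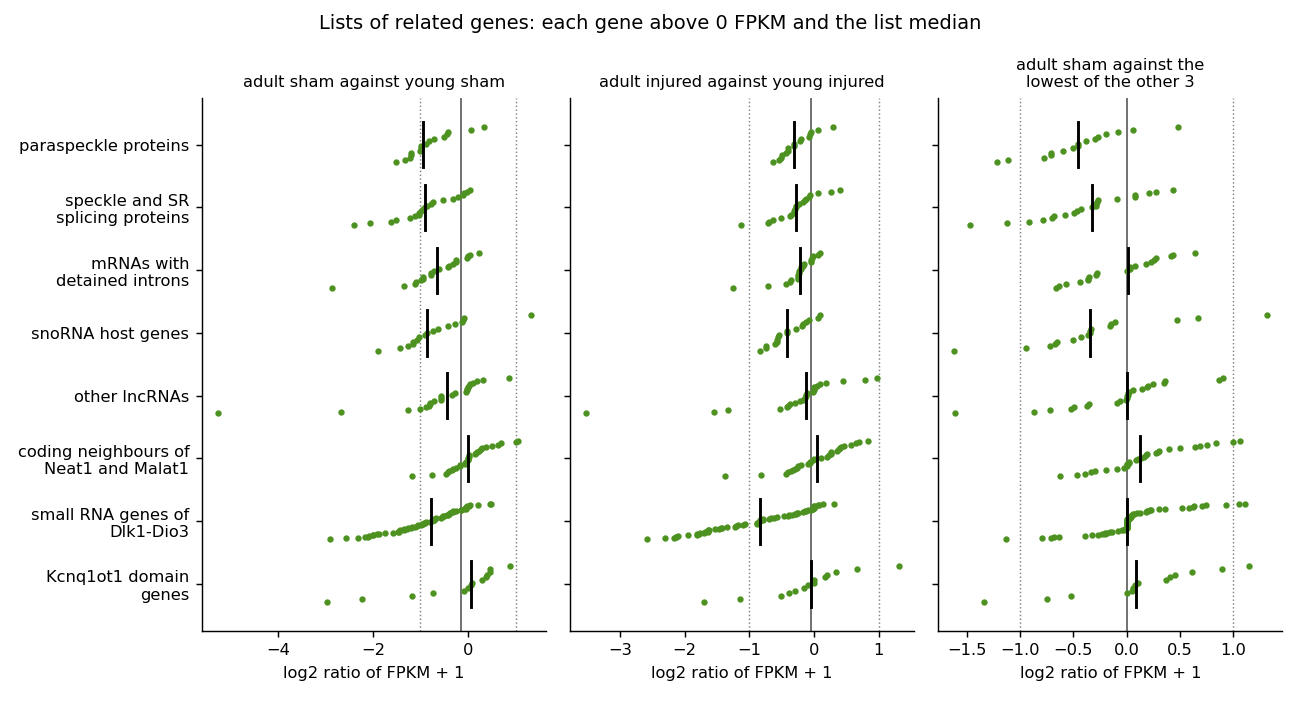
Log2 ratios of FPKM + 1 for the genes of 8 lists (points, genes above 0 FPKM) in adult sham against young sham, adult injured against young injured, and adult sham against the lowest of the other 3 libraries. Black bars are list medians, the grey line is the median of all genes and dotted lines mark 2-fold; small RNA genes of the Dlk1-Dio3 domain spread to the left in both age comparisons, whereas coding neighbours of Neat1 and Malat1 centre near 0.

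Ratios of FPKM between Meg3, Rian and Mirg within each library are not changed by a factor common to the library. The FPKM of Rian relative to that of Meg3 was 0.588 and 0.596 in young mice and 0.457 and 0.406 in adult mice. The ratio of Mirg to Meg3 was 0.105, 0.130, 0.137 and 0.10. These ratios varied by 1.47-fold and 1.37-fold over the libraries. The ratio of Neat1 to Malat1 was 0.887, 1.28, 0.0105 and 2.49, which is 236-fold with the adult sham value that Neat1 was chosen for and 2.81-fold over the other 3 libraries.

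The small RNA genes embedded in the same domain were read next. They lie along the same region as Meg3, Rian and Mirg, so they are not independent of these RNAs or of each other. These rows count fragments of poly-A selected RNA over a microRNA or snoRNA locus, not the mature small RNA, and those inside Meg3, Rian or Mirg can share fragments with their host. From Meg3 to Mirg, 61 microRNA and snoRNA genes were above 0 FPKM, and 51 of them, or 83.6%, were lower in both adult libraries than in both young ones. The same was true of 28.1% of 549 microRNA genes and 57.8% of 102 snoRNA genes elsewhere in the genome. Their summed FPKM was 394 and 358 in young mice and 85.9 and 74.6 in adult mice. Of the 39 that lie outside the annotated bounds of the 3 host RNAs, 31 were lower in both adult libraries. Many of these loci were near 0 FPKM in each library, such as Mir495 with 0.189, 0.120, 0 and 0 FPKM. Any trace in both young libraries then counts as lower in adult mice, so these counts say little for such loci. The summed FPKM of the 39 was 48.7 and 58.4 in young mice and 9.89 and 9.41 in adult mice. The lower sum in adult mice was thus not limited to loci nested in a member, but it rests on the loci with higher values.

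The snoRNA gene AF357359, inside Rian, had the highest values of them with 194, 167, 38.3 and 36.3 FPKM. Mir3072, inside Mirg, had 29.4, 31.8, 10.2 and 9.24 FPKM. Mir377 had 19.7, 13.0, 1.78 and 2.20 FPKM and Mir412 had 11.7, 10.4, 5.10 and 2.65 FPKM. All 4 were at least 2-fold lower in adult than in young cartilage, sham or injured. Mature sequences of microRNAs encoded inside Mirg are shown with the seed, bases 2 to 8, in capitals (RefSeq, GRCm38.p6, chromosome 12). The first pair shares a seed and the others do not.
miR-453: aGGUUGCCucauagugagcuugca
miR-496a-5p: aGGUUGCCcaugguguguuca
miR-377-3p: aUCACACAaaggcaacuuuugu
miR-3072-3p: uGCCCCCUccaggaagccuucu
miR-412-3p: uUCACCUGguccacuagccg
Mir453 had 10.4, 5.59, 0.926 and 1.03 FPKM and Mir496a had 1.42, 0.802, 0 and 0 FPKM, so both loci of the shared seed were low in the adult libraries.

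The protein-coding genes of the domain, which are active on the paternal copy or not imprinted, were mixed. Dlk1, a secreted and membrane-bound regulator of differentiation, had 26.5, 8.79, 0.870 and 2.18 FPKM and was the 1 of 8 that was 2-fold or more lower in adult than in young cartilage in both comparisons, beside 2.17% of all genes. Dync1h1, a dynein heavy chain gene beside the domain, had 20.1, 18.8, 26.3 and 21.9 FPKM. Dio3, which inactivates thyroid hormone and closes the domain, was at or below 1.09 FPKM in each library. The plot along the domain sets the host RNAs beside the small RNA genes.

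**Figure D5:**
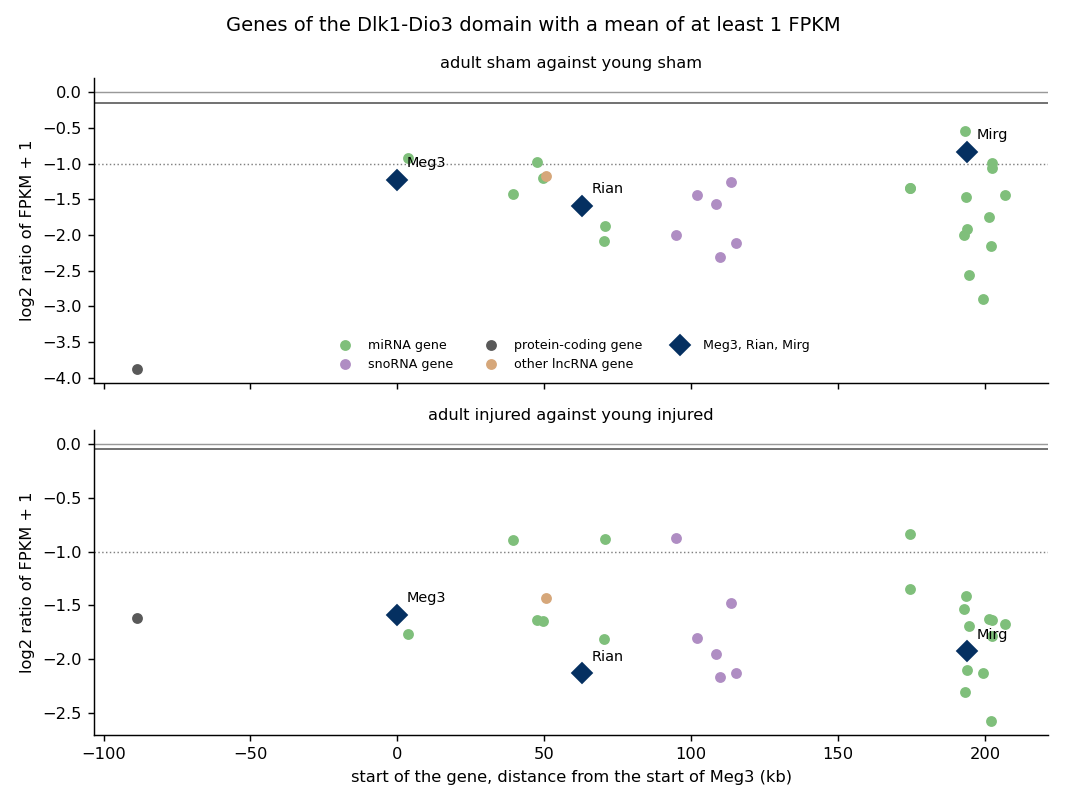
Log2 ratios of FPKM + 1, adult sham against young sham and adult injured against young injured, for genes of the Dlk1-Dio3 domain averaging 1 FPKM or more, by distance from the start of Meg3 (kb). The light line is 0, the dark line the median of all genes and the dotted line 2-fold; each gene shown, from Dlk1 to the microRNA genes around Mirg, lies below 0 in both panels.

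In the domain of Kcnq1ot1, Cdkn1c, an inhibitor of the cell cycle, had 185, 133, 22.8 and 59.2 FPKM and was thus lowest where Kcnq1ot1 was lowest. Cdkn1c was the 1 of 14 listed genes with a gap of 2-fold or more below in adult sham, a count near the 2.01% of all genes. Cd81 and Osbpl5 were highest in adult sham, at 292 and 40.1 FPKM. Phlda2, which restrains placental growth, was listed at 0 FPKM in adult sham, at 0.673 and 1.13 FPKM in young mice and at 4.28 FPKM in adult injured cartilage. Of the 14 genes of the list, 3, Cdkn1c, Cars and Trpm5, were 2-fold or more lower in adult sham than in young sham and none was higher, against 10.6% lower over all genes. The list median lay the other way, at 0.07 against −0.15 over all genes, and 6 of the 14 were below 0, or 42.9% against 65.6%. Kcnq1, which Kcnq1ot1 overlaps on the other strand, stayed at or below 0.589 FPKM. The libraries were strand-specific, but whether the counting used the strand is not given in the sources used here.

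By distance between centred log2 (FPKM + 1) values over the 4 libraries, among 8055 genes averaging 5 FPKM or more, the genes nearest to Meg3 were Airn, another imprinted noncoding RNA, Mir412 and Pdzk1ip1. Airn had 34.6, 28.2, 13.8 and 10.6 FPKM. Mirg was the 16th and Rian the 27th nearest to Meg3. Nearest to Rian were Snord2 and the cartilage genes Lect1 and Ucma, and nearest to Mirg were Pdzk1ip1, Nedd9 and Mir412. Lect1, which encodes chondromodulin, had 2130.5, 2211, 634 and 546 FPKM and was lower in both adult libraries, as Rian was. Yipf4, Enc1 and Hmgb1 were nearest to Malat1, and Ccser2, Ide and Msantd2 to Kcnq1ot1. Kcnq1ot1 averaged 0.540 FPKM, so the pseudocount of 1 FPKM flattens its pattern and sets which genes are near it. Ccser2 had 12.9, 10.5, 6.84 and 8.58 FPKM, within 2-fold, where the FPKM of Kcnq1ot1 varied 8.73-fold. Meg3 was 5482nd in distance from Malat1, which places the domain RNAs and Malat1 far apart.

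The makeup of the pools moved with some of these differences. The labels name chondrocytes, and all 9 chondrocyte markers were present, with Col2a1 at 3173 to 9349 FPKM and Acan at 214 to 559 FPKM. Of the 9, 5 were 2-fold or more lower in adult than in young sham cartilage, among them Col2a1, Col9a1 and Matn3, beside 10.6% of all genes, whereas Comp was 2-fold or more higher. Between the injured libraries, where the 3 domain RNAs were counted, 4 of the 9 were lower in adult mice, beside 3.09% of all genes, and Comp and Prg4 were higher, beside 1.8%. All 4 B cell markers were 2-fold or more lower in adult mice in both age comparisons, with median log2 ratios of −1.99 for sham and −1.71 for injured cartilage, and their summed FPKM was 49.6, 69.8, 10.2 and 18.5. All 6 erythroid markers were lower in adult than in young injured cartilage, at a median of −3.21, and 4 of 6 were lower between the sham libraries. Their summed FPKM was 1401, 3119, 3371 and 220.1, with Hbb-bs, whose row swapped with Hbb-b1, included. The summed FPKM of 7 osteoblast markers was 763 and 1438 in young mice and 5109.7 and 5747 in adult mice, that of 6 muscle markers was highest in adult sham at 1120.2, and that of 6 macrophage markers was 169 and 243 in the sham libraries and 1565 and 1363 in the injured ones. The summed FPKM of 5 fibroblast and synovium markers was 853, 2282, 465 and 1660.3, lowest in adult sham, with a median gap of −0.75. Of the 5, Col3a1, Lum and Pdgfra were lowest in adult sham and Thy1 and Dpt were not, with Dpt at a gap of 1.15. None of these lists held a defining marker at 0 in a library. The part of the makeup of the pools in the levels of Meg3, Rian, Mirg and H19, which were lower in both adult libraries, was not tested, and neither was its part in the adult sham values of Neat1 and Malat1.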

How the data were processed

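The data were 4 RNA-seq libraries of mouse articular cartilage, 1 for each group. Gene-level FPKM were deposited by the authors, on the genome build mm10, from a stranded protocol with poly-A selection. The submitters' processing notes name HISAT2 2.1.0, HISAT, StringTie 1.3.4d, STAR and SAMtools, without their roles. A division by transcript length and by mapped fragments is already in these values. The log2 ratio of FPKM + 1 was calculated over 18181 genes above 0 FPKM in 1 or more libraries and counted at 2-fold or more. With 1 library per group, no test was made. Members and lists were chosen with earlier results of these data known. Named genes were the 6 members, genes of the lists, the 10 genes with the deepest gap in adult sham among those with at least 5 FPKM in the other libraries, and the 3 genes nearest to each member but Neat1 among those averaging 5 FPKM or more; other names are marked as chosen after their values were seen. Of the table's genes, 24462 matched a RefSeq gene table of GRCm38.p6 by identifier. Transcript sequences were from GENCODE M21, matched through RefSeq accessions, which gave no transcript for Rian. The alternatives tried were 2 other pseudocounts, a filter on low values, 3 scalings and 2 thresholds. The scripts were tested on simulated data. The software was Python 3.11.15 with numpy 2.4.6, pandas 2.3.3 and matplotlib 3.10.9.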

Additional observations from a re-analysis of the deposited data

Results flagged for a closer look

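For 3 of the 6 RNAs the injury ratio had opposite signs at the 2 ages, and with 1 library per group this difference was not tested. Signs were also opposite for 38.6% of all genes. The log2 ratio of Malat1 was −0.39 in young and 1.39 in adult mice, a difference of 1.78. That of Mirg was 0.25 in young and −0.84 in adult mice, a difference of −1.09. That of Kcnq1ot1 was −0.31 and 0.29, a difference of 0.60.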

How the results depend on the processing

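Of 150 alternative values for the 30 log2 ratios of the members, 137 kept their sign and their side of 2-fold, 8 moved past 2-fold, 4 moved short of it, and 1, of Neat1 between the young libraries, changed sign while near 0. Counts of members moved by over 1.5 times in 3 cases, each to 1, Neat1: at a threshold of 3-fold for adult injured against adult sham and for the gap of adult sham, and under median-of-ratios scaling for that gap. Smaller moves were common: the 4 members between the sham libraries became 3 under median-of-ratios scaling, quantile normalization and at 3-fold, 5 with a pseudocount of 0.1 FPKM or as TPM and 6 at 1.5-fold. Counts over all genes moved with pseudocount and threshold by construction. With pseudocounts of 0.1 and 5 FPKM and thresholds of 1.5-fold and 3-fold they were 2585, 422, 2601 and 417 for young injured against young sham, in place of 1060, and 3538, 562, 3982 and 526 for adult injured against adult sham, in place of 1521. For adult sham against young sham they were 4880, 895, 5749 and 688, in place of 2418, and for adult injured against young injured 2346, 353, 2780 and 284, in place of 889. For the gap of adult sham they were 1185, 93, 1568 and 63, in place of 365. Rescaling to TPM gave 2319 for adult injured against adult sham and 695 for the gap, median-of-ratios scaling 172 and quantile normalization 137 for the gap; the cause was not tested. Scaling also moved the split of genes 2-fold or more apart. Between the sham libraries, 484 were higher and 1934 lower in adult mice, but 972 and 1009 under median-of-ratios scaling and 916 and 958 under quantile normalization. For adult injured against adult sham, 1255 higher and 266 lower became 866 and 455 under the first and 725 and 489 under the second, which took out a median shift of 0.23. Between the injured libraries, 328 and 561 became 625 and 619 as TPM. Quantile normalization gave 408 and 463 there. No replicate could be left out and no paired analysis was possible because each group had 1 library.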
